A study of Mus musculus with 7 samples.

Results

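The mRNAs of the nuclear-encoded subunits of the respiratory chain and of ATP synthase were followed in bulk RNA-seq of mouse motor cortex. The subunit genes were taken by biotype and name: protein-coding genes whose symbols begin with Nduf followed by a, b, c, s or v and a digit, the 4 genes Sdha to Sdhd, and symbols beginning with Uqcr, with Cox and a digit between 4 and 8, or with Atp5. The rule used no measured value and found 85 of the 54532 annotated genes, under 84 symbols, with 37 in complex I, 4 in complex II, 8 in complex III, 18 in complex IV and 18 in complex V. Another 12 genes match the names but are not annotated as protein coding and were left out: Ndufb1-ps, which had between 132 and 188 counts a library, and 11 processed pseudogenes with at most 17 counts.

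The libraries fall into 4 labelled cKO and 3 labelled WT. Every mouse, of either genotype, had received the GA100 virus in both lateral ventricles on postnatal day 0, and motor cortex was taken 3 months later, when behavioural tests were finished. The title of the series names TIA1 and C9orf72 poly-GA, the glycine-alanine dipeptide repeat protein made from the C9orf72 repeat expansion, and the comparison asks what the cKO genotype changes in cortex that carries it. The sources used here do not give the deleted gene, its deleted exons or the Cre line, a group without virus was not analysed here, and nothing states that each library came from a separate mouse. The p-values thus rest on the spread between libraries, which may be technical in part.

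Each of the respiratory complexes sits in the inner mitochondrial membrane. Complex I takes electrons from NADH and complex II takes them from succinate; coenzyme Q carries them to complex III, cytochrome c carries them to complex IV, and complex IV passes them to oxygen. Complexes I, III and IV pump protons, and complex V, the ATP synthase, uses the return of the protons to make ATP. Most subunits are encoded in the nucleus, and a few of those of complexes I, III, IV and V in mitochondrial DNA. Neurons rely on this pathway for most of their ATP, and NRF1, GABP and YY1 are transcription factors known to bind many subunit genes.

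Library totals lay between 15181390 and 16403202 counts in cKO and between 15213977 and 16463721 counts in WT. Levels in CPM are counts scaled to the library's total and its TMM factor. Tia1 had 81.4, 80.3, 72.7 and 81.9 CPM in cKO replicates 1 to 4, against 60.6, 95.8 and 68.9 CPM in WT replicates 1 to 3. Its log2 fold change was 0.07 ± 0.13 (SE, edgeR's quasi-likelihood test, adjusted p = 0.914). A count over the whole gene may lie outside a deleted part, so it checks no label, and cKO and WT stand below for what the libraries are labelled. Xist had 19151 counts in cKO replicate 1 and 15217 in WT replicate 1 and at most 8 in each of the other 5 libraries. Pairs of libraries of the same group all differed beyond counting noise, with a chi-square between 4.42 and 22.0 per degree of freedom, and none was merged.

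No subunit mRNA differed between cKO and WT in a way that passed the test. Of the 85 genes, 80 had enough counts to be tested, in 1 fit with 16308 genes in all, and 0 of the 80 had an adjusted p under 0.05 (edgeR's quasi-likelihood test), where the share over all genes tested was 0%. The smallest adjusted p of a subunit gene was 0.679. DESeq2, which called 0.0368% of all genes, and limma-voom, which called 0%, also called 0 of the 80, with smallest adjusted p of 0.393 and 0.714. DESeq2 gave no adjusted p to the low-count genes Ndufa4l2, Cox6a2, Cox4i2 and Cox6b2 and so could not call them. The share over all genes counts any such gene as not called. With no adjustment, 2 of the 80 had p under 0.05 in edgeR, both lower in cKO, against 7.14% of all genes in either direction and 2.91% lower in cKO, so the share among subunit genes was near the background. These estimates were narrow: the 95% interval of the log2 fold change lay inside -0.5 to 0.5 for 69 of the 80 genes and inside -1 to 1 for 78.

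The estimates leaned to the lower side by a small amount. In cKO, 63 of the 80 genes had a log2 fold change below 0 (78.75%), against 48.2% of all genes tested, and their median was -0.063, against 0.0074 for all genes. The subunit genes are read in the same 7 libraries, so the 63 are not independent observations, and no test was made of the count or of the median. Every cKO library lay below every WT library for 2 of the 80, Ndufa2 and Ndufs6, against 3.42% of all genes tested, and every cKO library lay above every WT library for 0 of the 80, against 3.97%. Single estimates are drawn with their SE in the plot of fold changes by complex.

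**Figure D1:**
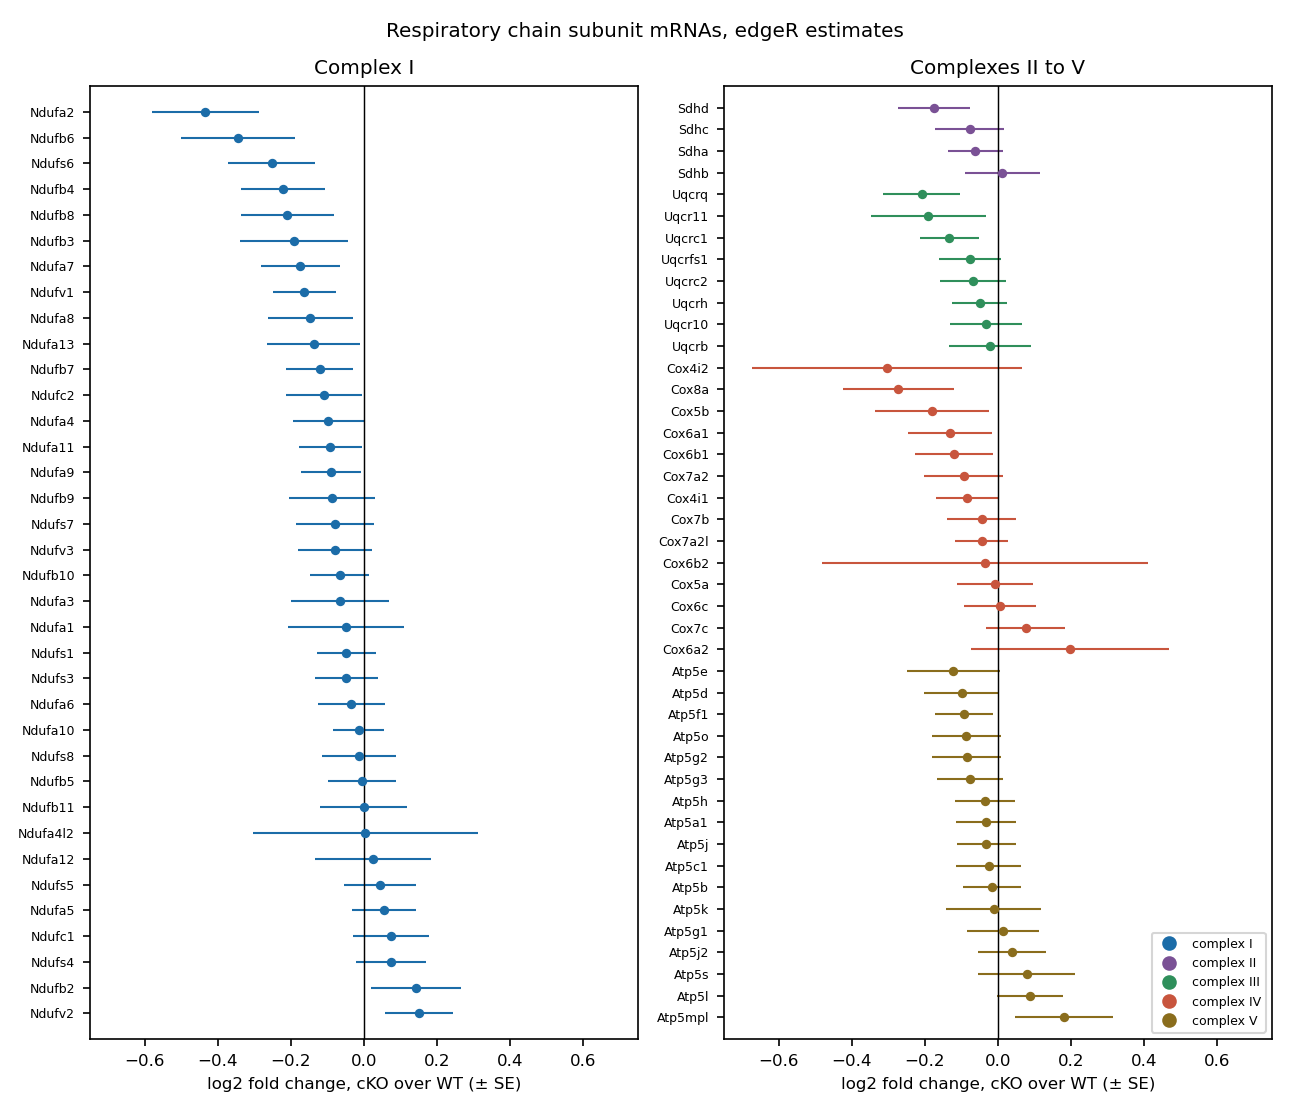
Log2 fold change of 79 of the 80 tested subunit mRNAs, cKO over WT (x axis), with complex I in the left panel and complexes II to V in the right one; points are edgeR estimates and bars are ± 1 SE (4 cKO and 3 WT libraries). 62 of the 79 points lie left of 0, and Ndufa2 and Ndufb6 lie farthest to the left at -0.43 and -0.35.

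By complex, the median log2 fold change was -0.066 in complex I (29 of 37 genes below 0), -0.069 in complex II (3 of 4), -0.072 in complex III (8 of 8), -0.064 in complex IV (11 of 14) and -0.032 in complex V (12 of 17). All 5 medians were lower than that of all genes. Summed over all 85 genes, the subunit mRNAs made up 6151 ± 282.5 CPM in cKO (SD, n = 4) and 6404 ± 419 CPM in WT (SD, n = 3). The 7 sums overlapped: they were 6433.5, 5829, 6337 and 6005.5 CPM in cKO replicates 1 to 4, against 6806, 5970 and 6436 CPM in WT replicates 1 to 3. Within the 3 pairs of libraries with the same replicate number, cKO had the lower sum in each. Counted after the values were seen, 27 of the 80 subunit genes were lower in cKO in all 3 pairs, against 14.6% of all genes tested, and 2 of the 80 (Ndufv2 and Ndufa5) were higher in cKO in all 3, against 14.8%. Ndufa2, Ndufb6, Sdhd, Uqcrq and Cox8a were among the 27. They are singled out below for small p-values from these same libraries, so this is no separate support. In a fit with the replicate number as a block, 0 of the 80 had an adjusted p under 0.05 in edgeR.

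Single libraries stood farther apart than the groups. The mean deviation of the 80 genes from their own average over the 7 libraries, in log2 CPM, was 0.083, -0.148, -0.022 and -0.027 in cKO replicates 1 to 4, and 0.134, -0.038 and 0.019 in WT replicates 1 to 3. WT replicate 1 stood highest and cKO replicate 2 lowest, while cKO replicate 1 lay above WT replicates 2 and 3. Of the 80 genes, 39 had their highest value in WT replicate 1 (48.75%, against 19.2% of all genes tested), and 38 had their lowest in cKO replicate 2 (47.5%, against 13.0% of all genes).

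**Figure D2:**
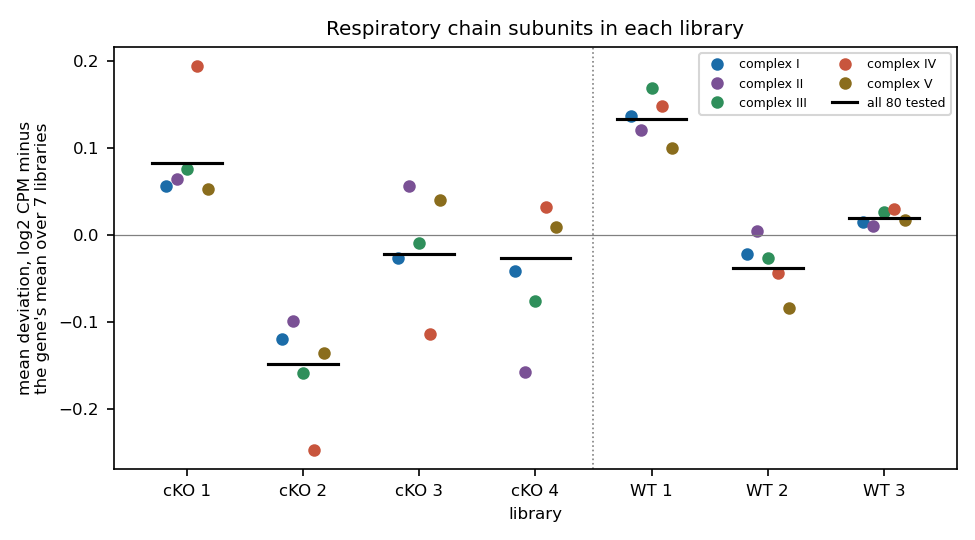
Mean deviation of the subunit mRNAs of each complex from their average over the 7 libraries, in log2 CPM (y axis), for each library (x axis); dots are complexes and the black bar is the mean over the 80 tested genes. The bars of cKO and WT libraries overlap: cKO replicate 2 is lowest at -0.148 and WT replicate 1 highest at 0.134, while cKO replicate 1 lies at 0.083.

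The median over the subunit genes moved with single libraries. It was -0.030 without WT replicate 1 (49 of 80 genes below 0) and -0.041 without cKO replicate 2 (53 of 80), and it was -0.103 without cKO replicate 1 (67 of 79) and -0.097 without WT replicate 2 (65 of 80). Without both WT replicate 1 and cKO replicate 2 it was 0.013, with 36 of 80 genes below 0, against 49.8% of all genes in that fit. Those were the highest and the lowest library for these same genes. A rise of the median was thus built in, and no conclusion is drawn from its size. Without the Xist-high library of each group, cKO replicate 1 and WT replicate 1, the subunit median was -0.058 (56 of 80). With 1 library left out, the medians ran between -0.115 and -0.041 in complex I, -0.113 and -0.039 in complex II, -0.130 and -0.052 in complex III, -0.134 and -0.020 in complex IV, and -0.082 and 0.012 in complex V, the last above 0 without WT replicate 1. The number of subunit genes with an unadjusted p under 0.05 in edgeR was 12 of 79 without cKO replicate 1 (against 9.91% of all genes in that fit), 7 of 80 without WT replicate 2 (9.52%), 2 of 80 without cKO replicate 3 (9.55%) and 0 of 80 without WT replicate 1 (3.34%). It was 1 without cKO replicate 2 (4.72%), cKO replicate 4 (5.08%) or WT replicate 3 (5.19%), and 6 of 80 with the replicate number as a block (7.52%). The sign of the fold change was the same in all 7 fits that leave out 1 library for 52 of the 80 genes, 43 of them lower and 9 higher in cKO.

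**Figure D3:**
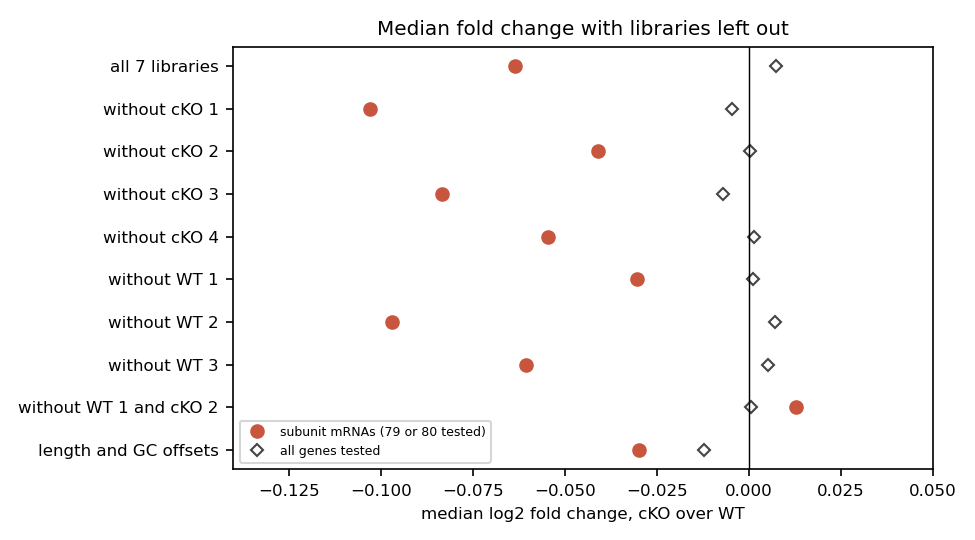
Median log2 fold change, cKO over WT (x axis), with libraries left out or with offsets for transcript length and GC content (y axis); red dots are the tested subunit mRNAs and open diamonds are all genes tested. The subunit median is -0.063 with all 7 libraries, runs between -0.103 and -0.030 with 1 library left out, and is 0.013 without both WT replicate 1 and cKO replicate 2. Those were the highest and the lowest library for these genes, so a rise was built in.

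The subunit mRNAs are short, and the libraries differed by transcript length and GC content across all genes. The median annotated transcript was 849.5 bases long for the subunit genes and 2990 for all genes tested, and median GC content was 51.6% against 49.9%. Among the other tested genes, split into 5 equal bins, the bin with the shortest transcripts had a median log2 fold change of -0.034 and the bin with the longest 0.055; the bin with the lowest GC content had 0.088 and the bin with the highest -0.084. The median deviation of the GC-richest bin was 0.053, -0.040, -0.151 and -0.00055 in cKO replicates 1 to 4, and 0.143, 0.019 and -0.00074 in WT replicates 1 to 3. Among the subunit genes, the 40 with higher GC content had a median log2 fold change of -0.086 (36 below 0) and the 40 with lower GC content -0.044 (27 below 0). In a fit with offsets for length and GC content in each library, the median of the subunit genes was -0.030 with 53 of 80 below 0, and that of all genes was -0.012 with 53.5% below 0.

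Cell-type markers also moved between the libraries. The 10 excitatory neuron markers include the glutamate transporter gene Slc17a7 and the calcium kinase gene Camk2a. They summed to between 4875 and 6213 CPM in cKO and between 6316 and 6797 CPM in WT. Of the 10, 9 had a log2 fold change below 0 (median -0.23). The other, the glutamate transporter gene Slc17a6, had 0.43 (edgeR, unadjusted p = 0.00474, adjusted p = 0.679). The 10 oligodendrocyte and myelin markers summed to between 4198 and 8331 CPM in cKO and between 3860.4 and 5898 CPM in WT, and 10 of 10 were above 0 (median 0.39). Their mean deviation was highest in cKO replicate 2, at 0.519, and lowest in WT replicate 1, at -0.611. These are the libraries with the lowest and the highest subunit mRNAs. The other libraries did not all keep that order. The oligodendrocyte markers were at 0.229 in cKO replicate 1, which had the highest subunit mRNAs in cKO. In cKO replicate 3 they were at -0.380, with the subunit mRNAs at -0.022. The 10 striatal medium spiny neuron markers summed to between 1314 and 2321 CPM in cKO, the highest in replicate 2, and between 1312 and 1631 CPM in WT. None of these 30 markers was at 0 in a library. In edgeR 0 of the 30 had an adjusted p under 0.05, against 0% of all genes tested. DESeq2 and limma-voom called 0 of the 30. An unadjusted p under 0.05 in edgeR was reached by 11 of the 30, against 7.14% of all genes tested. By list these were 6 excitatory, 4 oligodendrocyte and 1 striatal. Outside the 30 it was reached by 1 of 10 inhibitory neuron, 1 of 10 astrocyte, 2 of 10 microglia and 2 of 10 endothelial markers. Among other markers tested it was 3 of 9 pericyte, 0 of 10 meningeal, 2 of 3 choroid plexus and 0 of 2 skeletal muscle. Of the inhibitory neuron markers, 7 of 10 were above 0 (median 0.067). The mean deviations of the microglia and endothelial markers were highest in WT replicate 1, at 0.245 and 0.218. Both were lowest in cKO replicate 2, at -0.203 and -0.116. That of the astrocyte markers was highest in cKO replicate 1, at 0.123, and lowest in WT replicate 3, at -0.154. The part of any of these markers in the subunit values was not tested. In bulk tissue, fewer cells of a type and less RNA per cell cannot be told apart.

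Per length, the subunit mRNAs were abundant. In FPKM, which divide the reads of a gene by its length and by library size, 76 of the 80 tested genes had a mean level above the median of all genes tested, and the median level was 28.0 FPKM for the subunit genes and 4.27 FPKM for all genes. The median level was 26.9 FPKM in complex I, 39.1 in complex II, 46.5 in complex III, 45.5 in complex IV and 23.0 in complex V. Levels within a complex were far from equal: mean FPKM ran between 1.55 (Ndufa4l2) and 69.6 (Ndufa4) in complex I, between 17.7 (Sdhc) and 76.7 (Sdha) in complex II, between 23.8 (Uqcrb) and 63.2 (Uqcrfs1) in complex III, between 0.535 (Cox6b2) and 236 (Cox6a1) in complex IV, and between 6.04 (Atp5l) and 225 (Atp5a1) in complex V. The 3 highest were Cox6a1 with 226 ± 29.9 FPKM in cKO and 249 ± 34.6 in WT, Cox8a with 211 ± 38.2 in cKO and 256 ± 55.7 in WT, and Atp5a1 with 222 ± 14.5 in cKO and 228 ± 14.7 in WT (SD, n = 4 and 3). The group means of Cox6a1 and of Atp5a1 differed by less than either SD. Those of Cox8a differed by more than the SD in cKO and by less than the SD in WT. FPKM uses the authors' gene length, so genes counted with long annotated models, such as Ndufb2 at 2.98 FPKM, can be read low.

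**Figure D4:**
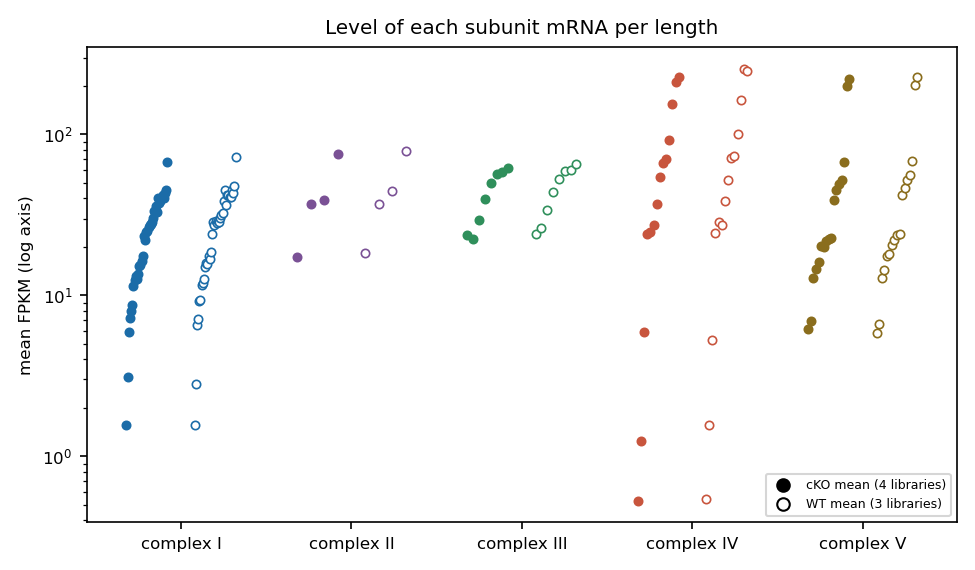
Mean FPKM of 79 of the 80 tested subunit mRNAs on a log axis (y axis), by complex (x axis), sorted within each complex; filled dots are the means of 4 cKO libraries and open dots the means of 3 WT libraries. Cox6a1, Cox8a, Atp5a1 and Atp5b are the highest dots in both groups, at 226, 211, 222 and 200.4 FPKM in cKO, and Cox6b2 is the lowest at 0.528 FPKM in cKO and 0.544 FPKM in WT.

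Because NRF1, GABP and YY1 are known for these genes, the windows around the gene starts were searched for their letters. RefSeq windows from 250 bases before to 50 after the gene's start (GRCm38.p6) were matched for 67 of the 84 symbols. The NRF1 letters were searched as GCGC, 1 base of any kind and TGCGC, the ETS letters bound by GABP as CCGGAAG, YY1 letters as AAGATGGCG, the SP1 GC box as GGGCGG and the TATA box as TATAAA, each on both strands, where matches of different motifs may overlap. NRF1 letters stood in 16 of 67 windows (23.9%), against 7.34% of the windows of 15052 protein-coding genes. Against all protein-coding genes, the shares were 22.4% against 13.0% for ETS letters, 8.96% against 2.19% for YY1 letters, 41.8% against 50.7% for SP1 letters and 10.4% against 11.9% for TATA letters. Among genes tested here, with 64 subunit windows and 10341 in all, the shares were 25.0% against 10.2% for NRF1, 23.4% against 17.3% for ETS, 9.38% against 3.05% for YY1, 42.2% against 65.1% for SP1 and 7.81% against 6.91% for TATA letters, so that the TATA share lay below the background over all genes and above it over tested genes. A match is a description of the letters and not a site of binding. The stretches below are examples from 4 genes of complexes I, II and V and the 1 complex IV gene with NRF1 letters, all 5′ to 3′ on the gene's strand and upstream of its start, with the NRF1 letters in capitals. They are at chr17:56717686-56717741 (plus strand) for Ndufa11, chr16:37654520-37654589 (minus) for Ndufb4, chr13:74350281-74350308 (minus) for Sdha, chr5:115349036-115349105 (minus) for Cox6a1 and chr11:115420021-115420090 (minus) for Atp5h.
Ndufa11: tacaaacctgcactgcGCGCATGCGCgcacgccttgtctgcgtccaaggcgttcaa
Ndufb4: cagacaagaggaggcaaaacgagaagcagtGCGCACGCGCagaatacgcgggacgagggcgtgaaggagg
Sdha: ggaggggcgtgttGCGCAGGCGCagaat
Cox6a1: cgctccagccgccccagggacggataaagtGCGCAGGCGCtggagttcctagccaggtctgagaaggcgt
Atp5h: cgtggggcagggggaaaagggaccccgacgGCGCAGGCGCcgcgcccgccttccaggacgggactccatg

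Genes with and without these letters were set side by side, with no test of the difference. The median log2 fold change was -0.086 for the 16 tested genes with NRF1 letters (14 below 0) and -0.049 for the 48 without (37 below 0). For ETS letters it was -0.1196 in 15 genes with them (13 below 0) and -0.062 in 49 without (38 below 0), and for YY1 letters -0.021 in 6 genes with them (3 below 0) and -0.063 in 58 without (48 below 0). It was -0.049 in 27 genes with SP1 letters and -0.066 in 37 without, and -0.080 in 5 genes with TATA letters and -0.050 in 59 without. Ndufa11 had -0.09, Ndufb4 -0.22, Sdha -0.06, Cox6a1 -0.13 and Atp5h -0.03, none with an adjusted p under 0.05 in edgeR. Of the genes of the factors themselves, Nrf1 had 19.9, 17.4, 15.8 and 18.4 CPM in cKO, against 17.7, 23.6 and 18.4 CPM in WT, and Yy1 had 109, 122, 115 and 108 CPM in cKO, against 111, 103 and 113 CPM in WT. Gabpa, the DNA-binding part of GABP, had 34.1, 36.4, 40.7 and 37.7 CPM in cKO, against 28.6, 35.7 and 30.8 CPM in WT, a log2 fold change of 0.23 ± 0.10 (SE; edgeR, unadjusted p = 0.0424, adjusted p = 0.696), and overlaps the subunit gene Atp5j on the other strand. Nrf1 and Gabpa were chosen after their values were seen. Ppargc1a, a coactivator of mitochondrial gene expression, had 61.6, 72.4, 82.3 and 58.0 CPM in cKO, against 57.4, 61.9 and 68.9 CPM in WT.

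In complex I, the largest differences were in accessory subunits. Ndufa2, an accessory subunit of the matrix arm, had 22.1, 19.2, 15.4 and 19.2 CPM in cKO, against 31.3, 22.9 and 22.7 CPM in WT. All 4 cKO libraries lay below the 3 WT libraries and WT replicate 1 stood well above the other WT libraries. The log2 fold change of Ndufa2 was -0.43 ± 0.15 (SE; 95% interval -0.75 to -0.11), with an unadjusted p of 0.0123 and an adjusted p of 0.679 in edgeR, and it was -0.27 without WT replicate 1. Ndufb6, an accessory subunit of the membrane arm, had 18.6, 13.5, 13.1 and 13.8 CPM in cKO, against 22.2, 16.1 and 17.96 CPM in WT. Its groups overlapped through cKO replicate 1, and its log2 fold change was -0.35 ± 0.16 (SE; edgeR unadjusted p = 0.0461, adjusted p = 0.696). Ndufs6, a zinc-binding accessory subunit of the matrix arm that was picked out after its values were seen, had 11.997, 11.0, 11.0 and 11.3 CPM in cKO, against 14.7, 12.3 and 13.6 CPM in WT, with no overlap. Each of these 3 genes overlaps another on the opposite strand (Tmco6, Smim27 and Mrpl36), and as the counting strand is not given in the sources used here, reads of the partner cannot be told apart from theirs.

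The 7 nuclear-encoded core subunits of complex I, which hold the flavin, the iron-sulfur clusters and the quinone site, had a median log2 fold change of -0.048, with 6 below 0. Ndufv1, which binds NADH and the flavin, had 103, 92.9, 93.8 and 91.3 CPM in cKO, against 117, 95.2 and 107 CPM in WT, and the groups overlapped through cKO replicate 1. Its neighbour in the same module, the iron-sulfur protein Ndufv2, leaned the other way with 83.9, 88.4, 100.2 and 76.9 CPM in cKO, against 82.2, 77.0 and 76.7 CPM in WT. The log2 fold changes were -0.16 ± 0.09 for Ndufv1 and 0.15 ± 0.09 for Ndufv2 (SE; edgeR, adjusted p = 0.715 and 0.745). Ndufs1, the largest iron-sulfur subunit, had 119.9, 127, 131 and 115 CPM in cKO, against 131, 116 and 135 CPM in WT, and the groups overlapped. Ndufs3, Ndufs7 and Ndufs8, of the quinone-reducing module, had log2 fold changes of -0.05, -0.08 and -0.01.

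Of the accessory subunits, 6 of 9 in the matrix arm and 16 of 19 in the membrane arm had log2 fold changes below 0, with medians of -0.079 and -0.087. Ndufs4, a matrix-arm subunit whose loss causes a Leigh-like disease in mice, had 34.1, 30.7, 37.9 and 32.7 CPM in cKO, against 31.6, 30.9 and 33.9 CPM in WT. The membrane-arm genes Ndufb4 and Ndufb8 had -0.22 and -0.21, and Ndufb2 had 0.14, the highest of that group. Ndufa4, named for complex I and since placed in complex IV, had 93.3, 81.7, 108 and 91.4 CPM in cKO, against 104, 92.3 and 104 CPM in WT, with cKO replicate 2 lowest and cKO replicate 3 highest. Its hypoxia-inducible relative Ndufa4l2 was low at 1.75, 1.53, 1.76 and 1.82 CPM in cKO, against 2.02, 2.10 and 0.991 CPM in WT.

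**Figure D5:**
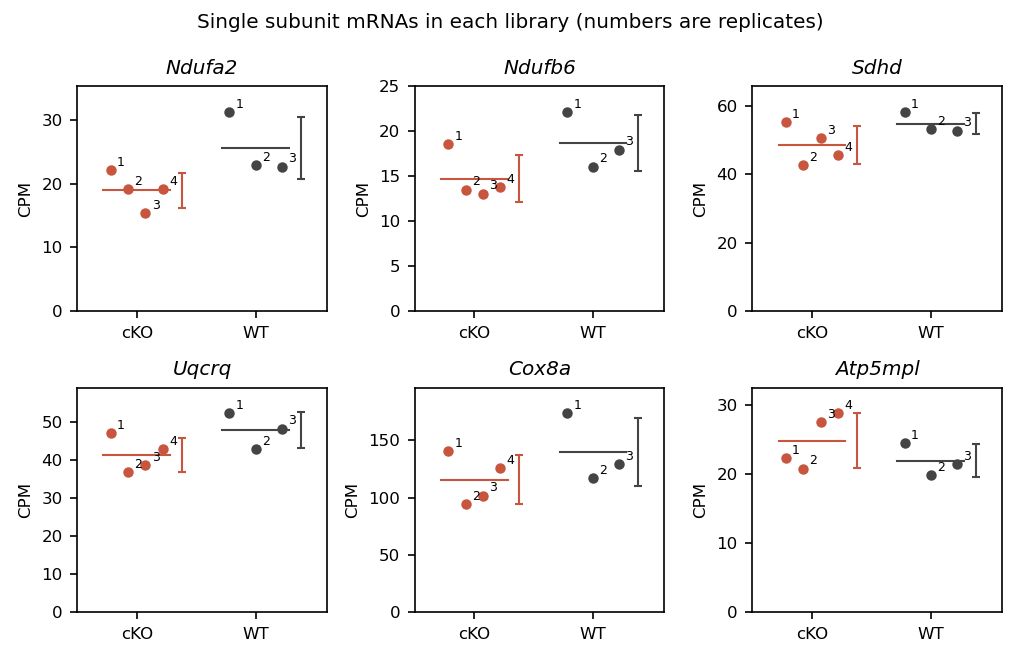
CPM (y axis, starting at 0) of 6 subunit mRNAs in each library of the cKO and WT groups (x axis); dots are libraries with their replicate numbers, horizontal lines are group means and bars beside them ± 1 SD (n = 4 and 3). The groups overlap for Ndufb6, Sdhd, Uqcrq, Cox8a and Atp5mpl and do not overlap for Ndufa2, and the library numbered 1 is the highest WT library in all 6 panels.

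Complex II has no subunit from mitochondrial DNA, and its 4 genes covered the whole complex. Sdha, the flavoprotein that oxidises succinate, had 318, 321, 305 and 304 CPM in cKO, against 350.2, 305 and 322 CPM in WT. Sdhb, which carries the iron-sulfur clusters, had 82.8, 80.2, 97.7 and 71.1 CPM in cKO, against 86.5, 77.0 and 83.1 CPM in WT. Of the membrane anchors that bind heme and coenzyme Q, Sdhc had 63.3, 53.1, 59.5 and 50.3 CPM in cKO, against 60.8, 62.2 and 55.9 CPM in WT, and Sdhd had 55.2, 42.7, 50.7 and 45.7 CPM in cKO, against 58.3, 53.3 and 52.8 CPM in WT. All 4 overlapped. Sdhd had the smallest unadjusted p of the complex, 0.103 in edgeR, with a log2 fold change of -0.17 ± 0.10 (SE; adjusted p = 0.731), and Sdhb was level at 0.01 ± 0.10.

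In complex III, all 8 tested genes had a log2 fold change below 0, the smallest in size being -0.021 for Uqcrb. Uqcrfs1, the Rieske iron-sulfur protein that hands electrons to cytochrome c1, had 90.3, 76.8, 92.6 and 78.4 CPM in cKO, against 89.1, 86.9 and 91.4 CPM in WT, so that cKO replicates 1 and 3 lay within or above the WT range and replicates 2 and 4 below it. The core proteins Uqcrc1 and Uqcrc2 had log2 fold changes of -0.13 ± 0.08 and -0.07 ± 0.09 (SE). Uqcrq, a small subunit beside cytochrome b, had 47.0, 36.8, 38.5 and 42.8 CPM in cKO, against 52.1, 42.9 and 48.1 CPM in WT, a log2 fold change of -0.21 ± 0.11 (SE; edgeR, unadjusted p = 0.0714, adjusted p = 0.713). Uqcr10, another small subunit, had 35.2, 32.2, 35.0 and 35.8 CPM in cKO, against 40.0, 34.5 and 31.5 CPM in WT, and its range in cKO lay inside that in WT.

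In complex IV, the 10 ubiquitous subunits stood high in both libraries numbered 1, with a mean deviation of 0.145 log2 CPM in cKO replicate 1 and 0.216 in WT replicate 1. Cox8a, the ubiquitous form of a small membrane subunit, had 141, 94.5, 102 and 126 CPM in cKO, against 173, 117 and 129 CPM in WT. Its log2 fold change was -0.27 ± 0.15 (SE; edgeR, adjusted p = 0.730) and was -0.091 without WT replicate 1, its highest library. Cox6a1, the ubiquitous form of a regulatory subunit, had 178, 142, 139.9 and 179.5 CPM in cKO, against 202, 159 and 165 CPM in WT. Cox4i1, the regulatory subunit that binds adenine nucleotides, had 260.1, 216, 236 and 246 CPM in cKO, against 277, 238 and 247 CPM in WT, and Cox6b1, which faces the intermembrane space, had 76.1, 55.0, 66.6 and 65.0 CPM in cKO, against 78.4, 66.7 and 68.9 CPM in WT. In each of these, cKO replicate 1 lay above WT replicates 2 and 3, so the groups overlapped. Cox7a2 had 66.7, 54.8, 68.9 and 60.5 CPM in cKO, against 75.3, 58.0 and 67.5 CPM in WT, and its relative Cox7a2l, which joins complexes III and IV into supercomplexes, had 85.5, 76.8, 83.7 and 80.3 CPM in cKO, against 85.2, 81.9 and 85.3 CPM in WT. The 10 ubiquitous subunits had a median log2 fold change of -0.089, with 8 below 0.

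The muscle, lung and testis forms of complex IV subunits were rare in this tissue in both groups. Per length, Cox4i2, a form known from lung and from hypoxia, made up 0.797 ± 0.229% of the Cox4i1 and Cox4i2 mRNA in cKO and 0.940 ± 0.278% in WT (SD, n = 4 and 3). The heart and muscle form Cox6a2 made up 2.51 ± 0.625% in cKO and 2.10 ± 0.496% in WT of the sum with Cox6a1, and the testis form Cox6b2 0.563 ± 0.143% in cKO and 0.545 ± 0.243% in WT of the sum with Cox6b1. Cox6a2 itself had 6.09, 2.86, 2.98 and 4.39 CPM in cKO, against 3.06, 3.89 and 3.76 CPM in WT; cKO replicate 1 was highest. Cox4i2 had 1.39, 0.998, 0.609 and 0.940 CPM in cKO, against 1.22, 0.865 and 1.58 CPM in WT, and Cox6b2 had 0.663, 0.333, 0.609 and 0.752 CPM in cKO, against 0.551, 0.865 and 0.396 CPM in WT. The forms Cox7a1, Cox7b2, Cox8b and Cox8c fell under the filter on low counts. Cox7a1, the heart and muscle form, had 7, 5, 1 and 1 counts in cKO, against 10, 7 and 10 counts in WT; the ranges touch at 7, and no test was made. Per length, its share of the sum with Cox7a2 was 1.10, 1.06, 0.173 and 0.183% in cKO, against 1.41, 1.30 and 1.70% in WT, so that every cKO library lay below every WT library, on at most 10 counts a library. Cox8b had 1, 2, 1 and 2 counts in cKO, against 0, 0 and 5 in WT, Cox7b2 had at most 3 counts in any library, and Cox8c had 0 in all 7.

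In complex V, the mRNAs of the catalytic head were the most abundant and were nearly level. Atp5b, the beta subunit that makes ATP, had 849, 849, 901 and 819 CPM in cKO, against 904, 796 and 892 CPM in WT, and Atp5a1, the alpha subunit, had 683, 706, 756 and 657 CPM in cKO, against 745, 667 and 736 CPM in WT. Their log2 fold changes were -0.02 ± 0.08 and -0.03 ± 0.08 (SE), and the 95% intervals were -0.19 to 0.16 and -0.21 to 0.14. All 5 head and central-stalk genes, the gamma, delta and epsilon subunits Atp5c1, Atp5d and Atp5e included, had values below 0, with a median of -0.032. The 4 tested genes of the peripheral stalk, which holds the head still (Atp5f1, Atp5h, Atp5j and Atp5o), were also below 0, with a median of -0.061. The remaining stalk row, a second Atp5o gene whose span overlaps the first, had 0 counts in every library.

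The c subunit, which forms the rotating ring of ATP synthase, is made from 3 genes that encode the same mature protein. Atp5g1 had 66.2, 54.1, 66.8 and 67.9 CPM in cKO, against 67.0, 57.1 and 65.4 CPM in WT, Atp5g2 had 40.6, 33.5, 37.0 and 39.3 CPM in cKO, against 40.1, 37.4 and 42.2 CPM in WT, and Atp5g3 had 120.1, 97.8, 112 and 100.3 CPM in cKO, against 119.8, 105 and 116 CPM in WT. Per length the 3 genes summed to 84.2 ± 7.09 FPKM in cKO and 88.6 ± 6.28 FPKM in WT (SD, n = 4 and 3). Their shares of that sum were 15.3, 26.5 and 58.2% in cKO and 14.5, 26.9 and 58.6% in WT. The shares of each gene in cKO and in WT differed by less than the SD in cKO. For Atp5g1 the difference was larger than the SD in WT (SD 0.989 in cKO and 0.291 in WT). Among the small membrane subunits, 3 of 4 were above 0, with a median of 0.063. Atp5mpl, the small proteolipid of the membrane part, had 22.3, 20.8, 27.6 and 28.8 CPM in cKO, against 24.5, 19.9 and 21.5 CPM in WT; cKO replicates 3 and 4 were high and replicates 1 and 2 lay with WT. Its log2 fold change was 0.18 ± 0.13 (SE; edgeR, adjusted p = 0.785).

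Genes that build or feed the chain gave 0 calls as well. In edgeR, 0 of 15 complex I assembly factors, 0 of 4 for complex II, 0 of 6 for complex III, 0 of 20 tested for complex IV and 0 of 7 for ATP synthase had an adjusted p under 0.05, and 12, 3, 4, 14 and 6 of them had a log2 fold change below 0, with medians of -0.069, -0.133, -0.119, -0.041 and -0.074. DESeq2 and limma-voom called 0 of them too, and an unadjusted p under 0.05 in edgeR was reached by 0, 1, 1, 0 and 0 of them. Ndufaf4, a complex I assembly factor, had 34.2, 33.9, 49.99 and 34.8 CPM in cKO, against 31.4, 33.9 and 28.8 CPM in WT, with cKO replicate 3 highest. Lrpprc, which stabilises mitochondrial mRNAs, had 72.5, 85.9, 89.6 and 71.4 CPM in cKO, against 74.0, 81.1 and 87.0 CPM in WT. Usmg5, a small protein of the ATP synthase membrane part, had 50.5, 49.1, 67.5 and 57.1 CPM in cKO, against 51.2, 46.7 and 48.0 CPM in WT, again with cKO replicate 3 highest. The other most abundant genes of these lists had log2 fold changes of -0.03 (Tmem126b), 0.05 (Sdhaf2), -0.0078 (Sdhaf3), 0.06 (Ttc19), -0.04 (Uqcc1), 0.05 (Coa5) and -0.00089 (Atpaf1), none with an adjusted p under 0.05. Genes of coenzyme Q synthesis had the lowest median of the other lists, -0.141 with 11 of 13 below 0 (-0.080 with the length and GC offsets), and 0 had an adjusted p under 0.05 while 1 had an unadjusted p under 0.05 in edgeR. The 2 most abundant of them, Coq2 and Coq9, had log2 fold changes of -0.06 ± 0.09 and -0.10 ± 0.10 (SE). Of 9 genes for cytochrome c, its partner cytochrome c1 and other parts of the chain, 6 were below 0 (median -0.033); Slc25a4, the ADP/ATP carrier of excitable tissue, had 364, 307, 297 and 319 CPM in cKO, against 391, 319 and 355 CPM in WT, and Slc25a3, the phosphate carrier, had a log2 fold change of -0.02 ± 0.08 (SE). Of 18 citric acid cycle genes, 11 were below 0 (median -0.030), and Ogdh, of the oxoglutarate dehydrogenase complex, had a log2 fold change of -0.02 ± 0.07 (SE).

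Of the 13 subunits encoded in mitochondrial DNA, 2 had a log2 fold change below 0, with a median of 0.060. The direction of that median rested on cKO replicate 3: it was -0.071 without that library and between 0.027 and 0.109 without any other, and it was -0.031 with the length and GC offsets. Of the 13, 0 had an adjusted p under 0.05 in edgeR, DESeq2 or limma-voom, and 1, mt-Atp6, had an unadjusted p under 0.05 in edgeR. The ATP synthase subunit mt-Atp6, chosen after its values were seen and overlapping mt-Atp8, had 120.2, 83.7, 150.4 and 87.6 CPM in cKO, against 114, 239.8 and 129 CPM in WT, with WT replicate 2 highest and the other values overlapping. Its log2 fold change was -0.54 (edgeR, unadjusted p = 0.0477, adjusted p = 0.696). The edgeR fit with no filter on low counts called 198 of its 31277 genes. It called mt-Atp6 too (adjusted p = 6.46e-06), at a nearly unchanged log2 fold change of -0.547. The complex IV core subunit mt-Co1 had 21142, 19105, 26089 and 19144 CPM in cKO, against 19885, 21370.4 and 18780.2 CPM in WT, and the complex III subunit mt-Cytb had 8309, 7832, 10678.5 and 7592 CPM in cKO, against 8089, 8797 and 7871 CPM in WT. In both, cKO replicate 3 stood above all other libraries and the remaining values overlapped. Genes of the mitochondrial genome took 6.11, 5.68, 7.54 and 5.72% of counts in cKO, against 5.80, 6.40 and 5.50% in WT, while the 85 nuclear subunit genes took 0.651, 0.577, 0.615 and 0.608% in cKO, against 0.676, 0.606 and 0.641% in WT. The libraries highest in mitochondrial transcripts were thus not those highest in nuclear subunit transcripts. Of 14 regulators of mitochondrial biogenesis, 5 were below 0, with a median of 0.062, which was 0.140 without WT replicate 3, 0.011 without WT replicate 2 and 0.032 without cKO replicate 3.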

How the data were processed

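RNA-seq of mouse motor cortex from 4 cKO and 3 WT libraries was used. Per the labels' protocols, random oligonucleotides primed cDNA synthesis on fragmented mRNA, and no strand marking is described. The authors deposited raw counts and FPKM values per gene for 54532 genes; the tools named, per the submitters' processing notes, were DESeq2 1.20.0 and featureCounts 1.5.0-p3, with the mm10 build. Nothing in the sources used here gives the aligner, annotation, counting strand or treatment of multi-mapping reads, so counts of the 37 of 85 subunit genes that overlap another gene are uncertain.

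The deposited counts were tested with edgeR 4.0.16 in R 4.3.3 (quasi-likelihood, TMM scaling, default filter on low counts). P-values were adjusted by Benjamini-Hochberg over all 16308 genes tested, and genes were called at adjusted p under 0.05. The same fit was also run on counts simulated from the means of these data. CPM are counts over the library's total in the tested genes, scaled by its TMM factor. Mean deviations use log2 CPM with the same scaling and a prior count of 2. Levels between genes use the deposited FPKM. Transcript length and GC content came from GENCODE M21, promoter windows from RefSeq. Alternatives were other scalings, filters, DESeq2 1.42.0, limma 3.58.1 on counts (voom) and on log2(FPKM + 1) or log2(FPKM + 0.1), a sex term, a replicate block and libraries left out; the length and GC offsets were added after seeing the data.

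Replicate numbers are shared by the groups. Libraries of the same number deviated together with correlations of 0.110, 0.128 and 0.122, each above the limit of 0.1 set for reading numbers as pairs. Those of different numbers reached 0.210, so the correlations do not single out the same-number pairs. The main fit and its p-values used no pairing. Pairs entered only the comparisons within replicate numbers and the replicate block. The pairing comes from the titles and the data only, and cKO replicate 4 has no WT partner.

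Values per library are given for the 2 most abundant genes and the gene with the smallest p in each complex, for genes with a tissue form, the c subunit genes, the Sdh genes and the core subunits of complex I, and for the 2 most abundant genes of a pathway list; 2 genes that this rule names are not reported here. The subunit genes and the lists were chosen with earlier results of these data known.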

Additional observations from a re-analysis of the deposited data

Results flagged for a closer look

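Among 37 sets of 4 cKO values examined for a library that stands apart (31 named subunit genes, the 80 tested genes together and each complex), 1 did. Atp5g1, one of the genes of the ATP synthase c subunit, had 54.1 CPM in cKO replicate 2, below 66.2, 66.8 and 67.9 CPM in the other cKO replicates; on the log2 scale the gap to the nearest of them was 0.890 of the whole range, above Dixon's critical value for 4 samples. Chance flags about 1 in 20 such sets, so 1 of 37 is not more than that. WT replicate 2, with 57.1 CPM, lay nearest to it.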

How the results depend on the processing

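No subunit gene was called under any alternative run. The number of genes called over the whole table was 0 in the main fit and 198 with no filter on low counts, 6 with DESeq2, 3 with log2(FPKM + 1) and no filter, 2 with the replicate block, and 1 without cKO replicates 3 and 4; with 1 library left out it was between 0 and 3 (3 without WT replicate 2). The replicate block changed no other call; with it the subunit median was -0.047 (60 of 80 below 0). The median was -0.083 with upper quartile scaling, -0.050 with a sex term, -0.070 with DESeq2 and -0.059 with limma-voom. Of the pathway lists, the median of complex I assembly factors was 0.00261 without cKO replicates 3 and 4, and that of the ATP synthase assembly list 0.00878 without WT replicate 1 and cKO replicate 2. Beyond the libraries left out, depth limits the rare complex IV forms, which had few counts.

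Some estimates changed sign under alternatives, none of them past a threshold, and the cause was not tested. WT replicate 1 and cKO replicate 2 were the highest and the lowest library for the subunit genes. Leaving both out thus favours higher estimates by construction. Without WT replicate 1 and cKO replicate 2 together, the log2 fold change was 0.055 for Ndufs8, 0.021 for Ndufs7, 0.094 for Uqcr10, 0.031 for Cox6a1, 0.026 for Cox4i1, 0.023 for Cox6b1, 0.052 for Cox7a2, 0.085 for Cox6b2, 0.015 for Atp5b and 0.00210 for Atp5g3. With the length and GC offsets it was 0.044 for Ndufs8, 0.026 for Ndufs7, 0.036 for Uqcr10, 0.00589 for Cox4i1, 0.026 for Cox6b2 and -0.043 for Atp5g1. With the replicate block it was 0.032 for Ndufs8, 0.00550 for Atp5b and -0.021 for Atp5g1. Without WT replicate 1 and cKO replicate 1 it was 0.056 for Uqcr10, -0.17 for Cox6a2, 0.00668 for Atp5a1 and 0.018 for Atp5b. Without cKO replicates 3 and 4 it was 0.010 for Ndufs3, -0.064 for Ndufa4l2, -0.018 for Sdhb, -0.032 for Atp5mpl and -0.075 for Atp5g1. Ndufa4l2 had -0.00211 with RLE scaling, -0.018 with upper quartile scaling, -0.00370 with library size only, -0.00200 with no filter, -0.00379 with a minimum of 1 CPM and -0.00176 with DESeq2. Sdhb had -0.00956 with upper quartile scaling, -0.00261 with log2(FPKM + 1), filtered or not, and -0.00286 with log2(FPKM + 0.1), and Atp5g1 had -0.00675 with upper quartile scaling. With 1 library left out, the ranges that crossed 0 were -0.082 to 0.030 for Ndufs8, -0.26 to 0.17 for Ndufa4l2, -0.083 to 0.074 for Sdhb, -0.11 to 0.063 for Uqcr10, -0.073 to 0.33 for Cox6a2, -0.26 to 0.30 for Cox6b2, -0.082 to 0.012 for Atp5b and -0.066 to 0.076 for Atp5g1.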
